A study of Mus musculus with 12 samples.

Results

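The genes encoded on the mitochondrial chromosome were taken as every row of the deposited count table whose gene symbol starts with mt-. The table held 37 such genes among 41388: 13 that encode mRNAs, 2 that encode rRNAs and 22 that encode tRNAs. All 37 lie on chromosome M in the annotation (GENCODE M21, GRCm38), and no other value was used to choose them. They were counted in 12 RNA-sequencing libraries of medial prefrontal cortex (PFC) from male Swiss Webster mice aged 10 weeks, 4 libraries for each of 3 groups. CON mice were raised conventionally, GF mice were kept germ-free in isolators, and exGF mice were GF mice that microbes colonized from postnatal day 21. The labels name no engineered allele and no drug, and all groups ate the same autoclaved diet. Equal amounts of RNA of 2 to 3 animals were combined in each library and enriched for polyA, and the p-values below therefore measure the spread between pools. The exGF columns of the table are called GFR1 to GFR4. They were read as the exGF group, the only one left without columns, and not matched to single samples.

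Mitochondria keep a small circular genome of their own, which nuclear-encoded proteins transcribe from both strands as long precursors. The tRNAs lie between the mRNAs and rRNAs and are cut out of the precursor, which releases the neighbouring transcripts, and most mitochondrial mRNAs and both rRNAs receive a short polyA tail. The mRNAs encode core subunits of respiratory complexes I, III and IV and of the ATP synthase, the rRNAs and tRNAs serve the mitochondrial ribosome, and neurons draw much of their ATP from this chain.

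Counts on genes ran from 13280926 (GF replicate 1) to 29134760 (CON replicate 3) per library. GF replicate 1 was the shallowest library and had the lowest mitochondrial share, and the comparisons with GF are given with and without it. Markers of cerebral cortex summed to 501 to 611 CPM (counts on a gene for every 1000000 counts on all genes) over the 12 libraries, and none of the 6 was at 0. The sums of several other marker lists differed between groups, with no marker at 0 in all 12 libraries. The 7 neuron genes summed to 10539 to 11697 CPM over CON libraries, to 11754 to 12138 over GF libraries and to 11162 to 12189 over exGF libraries. For the 6 genes of oligodendrocytes, the myelin-forming cells, the ranges were 2031 to 2569 CPM for CON, 2974 to 5164 for GF and 2027 to 3451 for exGF, and for the 5 microglia genes 218 to 260, 190 to 212 and 195 to 206. CON and GF did not overlap in any of these 3 sums. In GF relative to CON, edgeR's quasi-likelihood fit called 4 of the 6 oligodendrocyte genes at an adjusted p under 0.1 (0.251% of all genes). It called 0 of the 7 neuron genes and 0 of the 5 microglia genes. Taken singly, 4 oligodendrocyte genes, 1 neuron gene and 1 microglia gene did not overlap (5.39% of all genes). Of the microglia genes, 2 had a higher estimate in GF and 3 a lower one. The 5 endothelium genes summed to 196 to 224 CPM in CON, 192 to 216 in GF and 218 to 248 in exGF. Single libraries stood apart in other lists. The 5 striatum genes summed to 256.7 CPM in CON replicate 2 and 248.6 in GFR4 but to at most 145 in the other libraries, and the 4 choroid plexus genes to 13.9 CPM in GF replicate 1 but to at most 6.67 elsewhere. CON replicate 2 was also the lowest of 12 libraries for mt-Nd2, mt-Nd5 and mt-Tp, and GFR4 for mt-Nd1. The part of these cell types in the results below was not tested. In bulk tissue, fewer cells or mitochondria of a type cannot be told apart from less RNA in each.

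Counts on mitochondrial mRNA genes fell into 2 separate ranges. Of the 13 genes, 7 were among the abundant transcripts of the tissue and 6 had at most 21 counts in any library. On the scale of CPM per kilobase of gene, averaged over 12 libraries, mt-Co1 stood highest with 14019, followed by mt-Cytb with 12816 and mt-Nd1 with 11826. mt-Co1 encodes the catalytic subunit of complex IV, mt-Cytb the cytochrome b of complex III and mt-Nd1 a membrane subunit of complex I. The ranges of these 3 over the libraries overlapped (10159 to 17255, 10223 to 14789 and 7935 to 16533), so their order was not resolved beyond the spread. The other complex I genes lay lower, at 6687 CPM per kilobase for mt-Nd2, 4207 for mt-Nd4, 3407 for mt-Nd6 and 3326 for mt-Nd5. mt-Nd6 lies on the opposite strand to the other 12 mRNA genes. The counting ignored strand, so pairs from mt-Nd6 and from precursor transcribed through it in the other direction cannot be told apart.

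The 6 remaining mRNA genes had almost no counts. mt-Co2, which encodes the copper-binding subunit of complex IV, had 10, 21, 7 and 9 counts in the CON libraries, 4, 12, 13 and 8 in GF, and 14, 6, 11 and 13 in GFR1 to GFR4. mt-Co3, another subunit of complex IV, had 5 to 15 counts per library, and mt-Atp6, the proton-channel subunit of ATP synthase, had 2 to 12. The 3 shortest genes were lower still. mt-Atp8, a small subunit of ATP synthase that overlaps mt-Atp6, was counted in 5 of 12 libraries (at most 6 counts). mt-Nd3 and mt-Nd4l, small subunits of complex I, were counted in 4 libraries (at most 4) and in 3 libraries (at most 3). In CPM per kilobase mt-Co2 stood at 0.673 and its neighbour mt-Co1 at 14019. Pairs aligned to several places were given to no gene, so low counts on a gene need not mean little of its mRNA.

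These low genes lie side by side on chromosome M, between position 7013 (start of mt-Co2) and 10173 (end of mt-Nd4l), and 5 of the 6 are held nearly whole by nuclear transcripts. The share of a gene's 100-base windows that occur without a mismatch in a nuclear transcript was 99.5% for mt-Co2 (Gm28661), 99.5% for mt-Atp6 (Gm10925), 99.9% for mt-Co3 (Gm28437), 97.6% for mt-Nd3 (Gm28438) and 98.5% for mt-Nd4l (Gm10222). Next to them, the share was 60.8% for mt-Nd4 (Gm28439) and 30.8% for mt-Co1, most of it with Gm29216. It was 3.19% for mt-Nd2 (Gm13339) and 0% for mt-Nd1, mt-Nd5, mt-Nd6, mt-Cytb and both rRNA genes. For mt-Atp8 it was also 0% although the gene had at most 6 counts. On chromosome M the gene lies between mt-Co2 and mt-Atp6, whose matched parts are 233 bases apart. The nuclear transcripts Gm28661 and Gm10925 are 233 bases apart as well. Only annotated transcripts were searched, so whether the nuclear bases between them hold mt-Atp8 sequence was not tested.

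**Figure D1:**
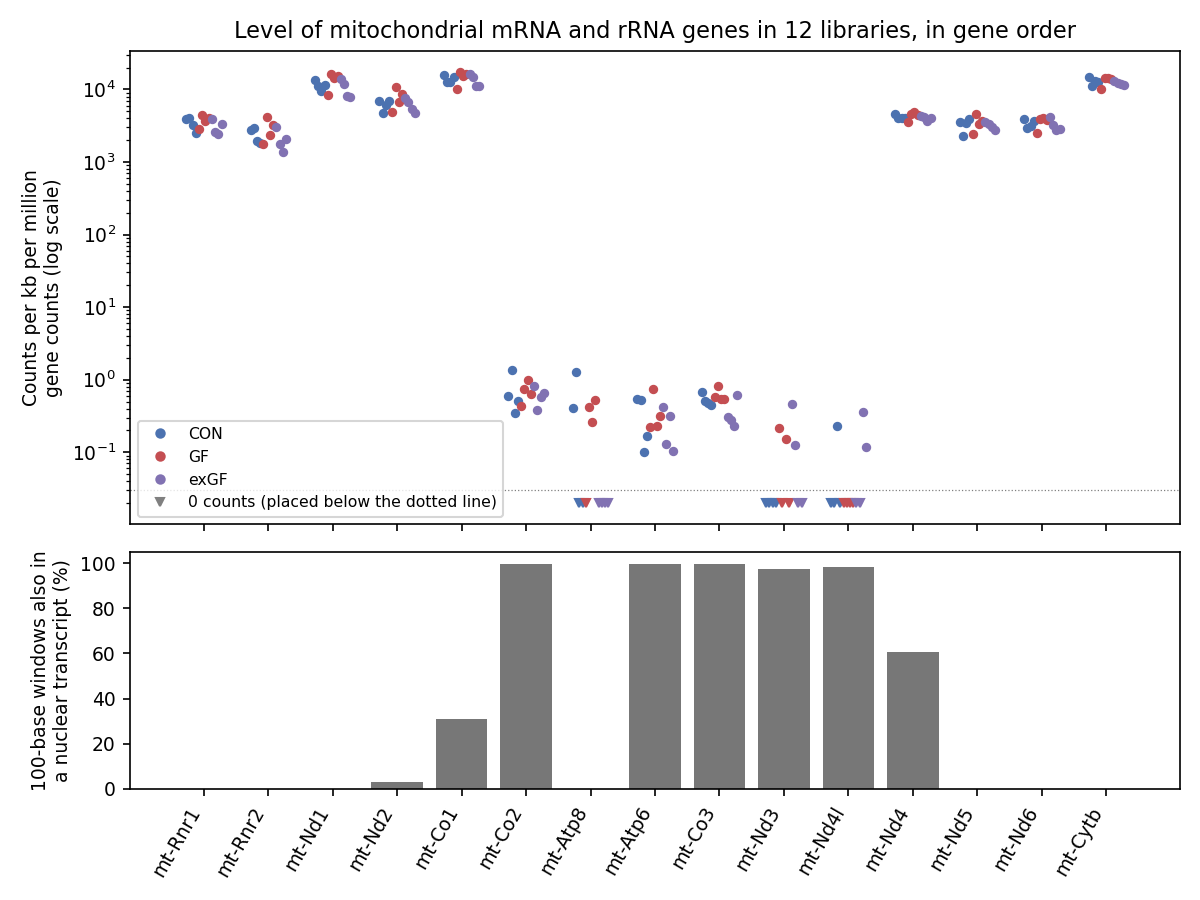
Upper panel: level of each mitochondrial mRNA and rRNA gene in each of 12 libraries (CPM per kilobase, log scale), in the order of the genes on chromosome M, with libraries at 0 counts drawn as triangles below the dotted line. Lower panel: percent of the gene's 100-base windows found in a nuclear transcript. The genes at 97.6% to 99.9% all lie near the bottom of the upper panel, and mt-Atp8 lies there with 0%.

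The 7 nuclear copies form a single block at chr1:24611535-24616197 (GRCm38, minus strand, 4663 bases), in the same order as on chromosome M. Of the 6 spacings between neighbouring copies, 5 equal the spacing of the matched mitochondrial stretches and the other, between Gm28438 and Gm10222, differs by 1 base. Within the aligned stretches 5 of the 7 copies show no difference from the mitochondrial gene, Gm29216 shows 6 differences from mt-Co1, and Gm28438 shows a single one from mt-Nd3. To show how alike the copies are, 100 bases of mt-Co3 (chrM:8707-8806, plus strand) that Gm28437 holds without any difference are printed first, in lower case throughout. The first 60 bases of mt-Nd3 (chrM:9459-9518, plus strand) and of Gm28438 (chr1:24613060-24613119, minus strand) follow, with the base that differs in capitals (T3C, the base of mt-Nd3 first, its position counted from the 5′ end of the gene, then the base of Gm28438). All sequences are from GENCODE M21 transcripts on GRCm38, 5′ to 3′.
mt-Co3: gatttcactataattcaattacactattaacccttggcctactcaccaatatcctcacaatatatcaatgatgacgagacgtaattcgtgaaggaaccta
mt-Nd3: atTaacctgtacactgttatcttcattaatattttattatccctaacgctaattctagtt
Gm28438: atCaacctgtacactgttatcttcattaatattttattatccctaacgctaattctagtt

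HTSeq does not give a pair that aligned to several places to any gene, and the nuclear copies without a difference had almost no counts either. Gm28661, Gm10925, Gm28437, Gm28439 and Gm10222 had 1 to 19 counts per library, and so did Gm29216 (3 to 17). The exception was Gm28438 (ENSMUSG00000101939), the copy of mt-Nd3 with T3C. It had 153 to 1243 counts per library, where mt-Nd3 had 0 to 4. Its level was 19.8, 22.7, 8.62 and 18.3 CPM in the CON libraries, 11.5, 53.0, 19.2 and 42.1 in GF, and 38.9, 17.8, 5.62 and 6.47 in GFR1 to GFR4. GF replicate 2 was highest and GFR3 lowest, and the groups overlapped. In GF relative to CON its log2 fold change was 0.94 (SE 0.39, unadjusted p = 0.0292, Benjamini-Hochberg adjusted p = 0.502 in edgeR's quasi-likelihood fit). Pairs from chromosome 1 and from chromosome M cannot be told apart in a table of counts, so how much of the Gm28438 level is nuclear RNA was not tested.

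The levels of genes that are only partly copied depend on the length they are divided by. With the level divided by the bases not shared in a 100-base window instead of the whole length, mt-Co1 went from 14019 to 27006 CPM per kilobase and mt-Nd4 from 4207 to 11549. mt-Nd2 went from 6687 to 7636. On that scale mt-Nd4 came near mt-Nd1 (11826) and mt-Cytb (12816), which have no shared window, while mt-Nd5 stayed at 3326. This division leaves out every base covered by a shared window, 743 of the 1545 bases of mt-Co1. Pairs lying only partly on such bases can align to a single place and are still counted. The rescaled levels can therefore be too high, and by how much was not tested.

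The 2 rRNA genes were well counted despite polyA selection. mt-Rnr1, the RNA of the small mitochondrial ribosomal subunit, had 36074 to 101047 counts per library and averaged 3424 CPM per kilobase. Its level was 3706, 3838, 3138 and 2405 CPM in the CON libraries, 2716, 4306, 3464 and 3921 in GF, and 3743, 2457, 2315 and 3227 in GFR1 to GFR4. mt-Rnr2, the RNA of the large subunit, averaged 2441 CPM per kilobase. It had 4349, 4636, 3062 and 2907 CPM in CON, 2839, 6623, 3770 and 5179 in GF, and 4817, 2770, 2148 and 3249 in GFR1 to GFR4. mt-Rnr2 was the most variable of the well counted genes, 3.08-fold between GFR3 and GF replicate 2, and the groups overlapped for both rRNAs. The number of rRNA counts per 100 mRNA counts was 10.6 ± 2.81 in CON, 11.1 ± 1.27 in GF and 9.66 ± 2.22 in exGF (SD, n = 4 libraries each), differences smaller than the spread between pools. Pairs aligned to several places are in neither count, so these are not ratios of the RNA itself.

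Of the 22 tRNA genes, mt-Tp alone (the proline tRNA) had more than 16 counts in a library. It had 697 to 2715 counts per library and held 99.5% of the 19632 tRNA counts of all libraries. mt-Tc (the cysteine tRNA) had 1 to 16 counts per library and 90 in all, mt-Tm (methionine) had 3 in all, and mt-Tl1, mt-Tq and mt-Te had 1 each. The other 16 were at 0 in all 12 libraries, which with 280705974 counts on genes allows up to 0.0107 CPM each (3 counts, counting error only). tRNA genes here are 59 to 75 bases long, and under the counting rule a pair that covered parts of 2 genes, with neither gene along all of it, went to no gene. mt-Tp is the last annotated gene of the chromosome, with mt-Tt (the threonine tRNA, 0 counts) directly on one side and no gene annotated after it. mt-Tc has an unannotated gap of 32 bases on the side of mt-Tn, which had 0 counts. The sequences of the 2 counted tRNA genes and of the uncounted neighbour of mt-Tp are given because all 3 have nearly the same length: mt-Tp at chrM:15356-15422 (minus strand), mt-Tc at chrM:5192-5257 (minus strand) and mt-Tt at chrM:15289-15355 (plus strand), each whole and in lower case.
mt-Tp: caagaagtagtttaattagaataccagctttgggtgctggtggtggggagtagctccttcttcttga
mt-Tc: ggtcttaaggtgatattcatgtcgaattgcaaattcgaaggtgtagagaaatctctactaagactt
mt-Tt: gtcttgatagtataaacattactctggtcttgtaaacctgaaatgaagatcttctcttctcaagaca

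The level of mt-Tp was 58.5, 40.6, 69.8 and 73.6 CPM in the CON libraries, 52.5, 86.2, 56.3 and 81.9 in GF, and 109.6, 59.2, 65.1 and 71.3 in GFR1 to GFR4. GFR1 was highest and CON replicate 2 lowest. With strand ignored, these counts can come from the proline tRNA or from RNA of the other strand across it.

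Together the mitochondrial genes took 5.68% to 9.80% of all counts on genes. These counts leave out pairs aligned to several places, so the share is not the whole mitochondrial part of the RNA. The share was 8.47%, 6.76%, 6.96% and 7.55% in the CON libraries, 5.68%, 9.80%, 8.33% and 8.87% in GF, and 8.45%, 7.39%, 6.12% and 6.13% in GFR1 to GFR4. GF held both the lowest and the highest library, and the groups overlapped. The counting error is small beside this spread: the 95% Wilson interval of GF replicate 1, the shallowest library, ran from 5.67% to 5.69%. The mean share was 7.43% ± 0.770 (SD, n = 4) for CON, 8.17% ± 1.77 for GF and 7.02% ± 1.12 for exGF. GF exceeded CON by 0.736 percentage points, exGF was 0.415 points below CON (-0.415) and exGF was 1.15 points below GF (-1.15), each less than the SD of GF. Single libraries moved these values by more than 1.5-fold. The difference of exGF and CON was -0.0684 without CON replicate 1, -0.114 without GFR3, -0.118 without GFR4, -0.640 without CON replicate 2 and -0.890 without GFR1. That of exGF and GF was -0.606 without GF replicate 2 and -1.98 without GF replicate 1.

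Kept apart by class, mRNA genes took 6.73% ± 0.771 of gene counts in CON, 7.34% ± 1.55 in GF and 6.39% ± 1.001 in exGF. rRNA genes took 0.701% ± 0.150, 0.820% ± 0.232 and 0.618% ± 0.179 in the same order. tRNA genes took 0.00609% ± 0.00147, 0.00698% ± 0.00176 and 0.00766% ± 0.00229. The order of means was GF, CON, exGF for mRNAs and rRNAs and exGF, GF, CON for tRNAs, and no pair of groups was separated by more than the larger SD. Among the counts on mitochondrial genes, mt-Co1 held 28.8% over all libraries, mt-Cytb 19.5% and mt-Nd1 14.9%. The mt-Nd2 share of them averaged 8.51% in CON (7.24% to 9.41%), 9.73% in GF (8.47% to 11.4%) and 9.08% in exGF (8.05% to 9.56%), again overlapping.

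**Figure D2:**
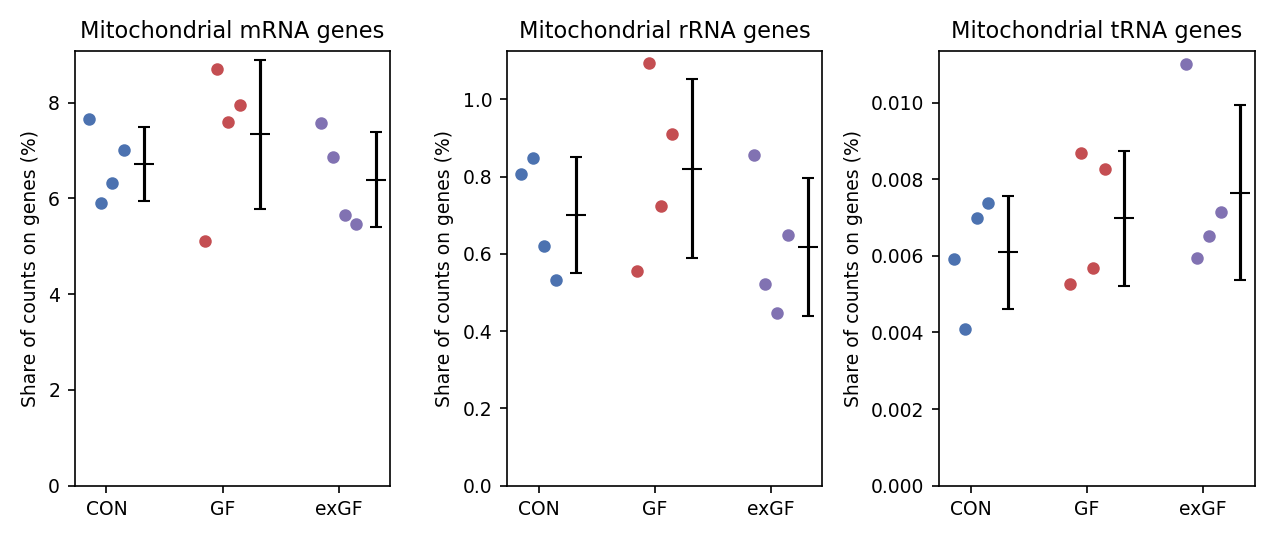
Percent of all counts on genes that fell on mitochondrial mRNA, rRNA and tRNA genes (3 panels, each axis starting at 0). Points are libraries, 4 per group, and bars are the mean and SD. GF ranged from 5.12% to 8.70% for mRNA genes and the groups overlap in every panel.

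The comparison of GF with CON asks which PFC transcripts differ in mice without microbes. None of the mitochondrial genes was called. All 10 members with at least 100 counts in every library had a higher estimate in GF, from log2 0.09 for mt-Cytb to 0.40 for mt-Nd2, with a median of 0.17 against 0.0069 for all 15542 genes tested, but none passed the test. mt-Tc also entered the fit, through the counts of its GF libraries. At a Benjamini-Hochberg adjusted p under 0.1, edgeR's quasi-likelihood fit called 0 of 11 (0.251% of all genes). At an unadjusted p under 0.05 it found 0 of 11 as well (8.69% of all genes), and in 0 of 11 the groups did not overlap (5.39% of all genes). DESeq2 and limma-voom also found 0 at either threshold. The 11 genes share libraries and precursors and are not independent of each other.

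mt-Nd2, another membrane subunit of complex I, had the smallest p of the members. Its level was 7093, 4894, 6269 and 7103 CPM in the CON libraries and 5065, 11193, 7060 and 8968 in GF. GF replicates 2 and 4 were above every CON library, GF replicate 3 was among them and GF replicate 1 was near the bottom. Its log2 fold change was 0.40 (SE 0.20, unadjusted p = 0.0639, Benjamini-Hochberg adjusted p = 0.605 in edgeR's quasi-likelihood fit). For mt-Rnr2 the log2 fold change was 0.36 (SE 0.22), for mt-Nd1 0.30 (SE 0.18) and for mt-Rnr1 0.19 (SE 0.15). The remaining mRNAs stood lower, at 0.14 (SE 0.18) for mt-Nd5, 0.13 (SE 0.14) for mt-Co1, 0.12 (SE 0.15) for mt-Nd6, 0.11 (SE 0.10) for mt-Nd4 and 0.09 (SE 0.12) for mt-Cytb. mt-Tp gave 0.24 (SE 0.19). mt-Tc, at 1 to 16 counts per library, gave 1.01 with an SE of 0.68.

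Leaving out GF replicate 1 moved the mitochondrial share of GF more than leaving out any other library. Without it, GF exceeded CON by 1.57 percentage points in mitochondrial share in place of 0.736. Without GF replicate 2 the difference was 0.191 points. The estimates without GF replicate 1 rose to log2 0.57 (SE 0.15) for mt-Nd2, 0.53 (SE 0.19) for mt-Rnr2, 0.47 (SE 0.11) for mt-Nd1 and 0.27 (SE 0.09) for mt-Co1. Without GF replicate 2, the highest GF library, the same estimates were lower, at 0.18 (SE 0.17) for mt-Nd2, 0.11 (SE 0.19) for mt-Rnr2, 0.18 (SE 0.18) for mt-Nd1 and 0.03 (SE 0.14) for mt-Co1. Without GF replicate 1, 8 of 13 tested members had an unadjusted p under 0.05 (11.3% of all genes), and the lowest adjusted p among the well counted genes was 0.164, for mt-Nd1 (edgeR's quasi-likelihood fit, Benjamini-Hochberg), and 0 were called. Without GF replicate 2, 0 of 11 had such a p (7.78% of all genes), and leaving out any of the other 6 libraries gave 0 or 1. Removing the lowest GF library widens the difference by construction.

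**Figure D3:**
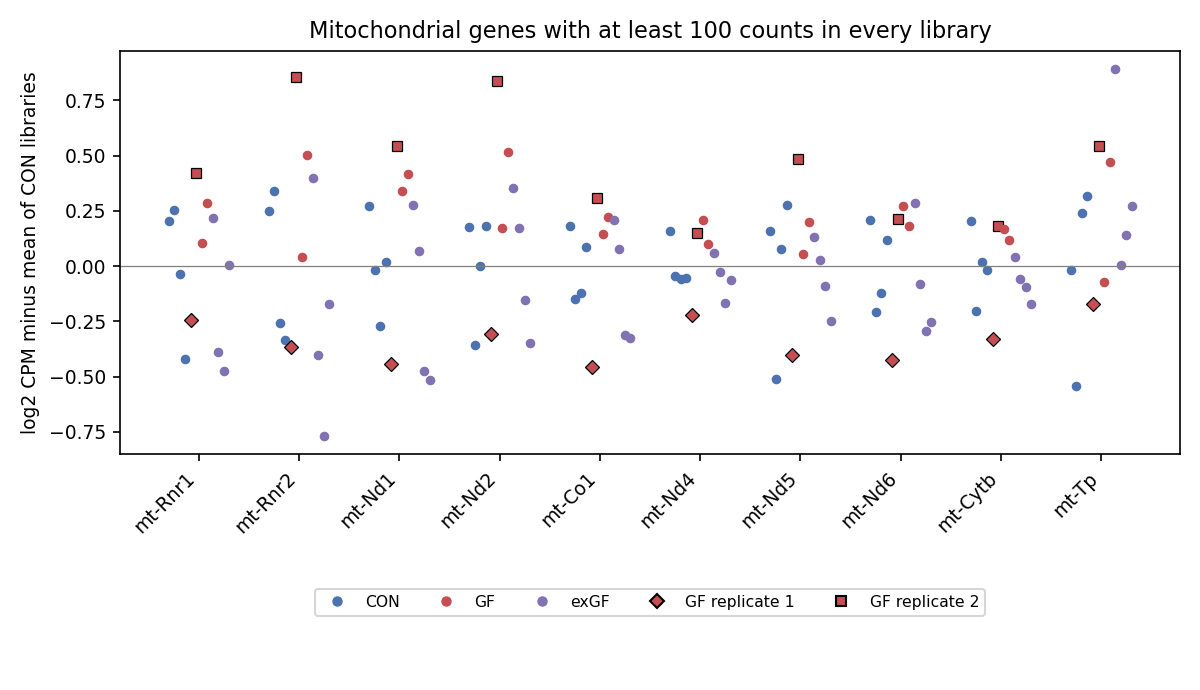
Level of the 10 mitochondrial genes with at least 100 counts in every library, as log2 CPM minus the mean of the CON libraries, 12 points per gene. GF replicate 1 (diamonds) lies at the bottom of its group for nearly all genes and GF replicate 2 (squares) at or near the top, with most CON and exGF libraries between them.

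The comparison of exGF with CON asks what remains different after colonization. No mitochondrial gene was called in exGF relative to CON, and the estimates ran from log2 -0.20 for mt-Rnr2 to 0.33 for mt-Tp with a median of -0.08 (all genes -0.0065). With edgeR's quasi-likelihood fit and a Benjamini-Hochberg adjusted p under 0.1, 0 of 11 tested members were called (0.0696% of all genes). Without adjustment, p was under 0.05 in 0 of 11 (5.33% of all genes), and in 0 of 11 the groups did not overlap (3.08% of all genes). DESeq2 and limma-voom also found 0 at either threshold. mt-Tp, at 0.33 (SE 0.21), and mt-Nd2, at 0.02 (SE 0.15), had positive estimates and the other 9 negative ones. The SE of the 9 well counted mRNAs and rRNAs ran from 0.08 (mt-Nd4) to 0.22 (mt-Rnr2). Changes of that size, and larger ones too, could not be told from none at the threshold for a call. mt-Co2, at 6 to 21 counts in these libraries, gave -0.15 (SE 0.45).

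The comparison of exGF with GF gave the lowest estimates. Of the 10 members with at least 100 counts in every library, 9 had an estimate below 0, with a median of log2 -0.20 (all genes -0.0047), and GFR3 or GFR4 was the lowest exGF library for each of the 9 well counted mRNAs and rRNAs. In edgeR's quasi-likelihood fit 0 of 12 were called after Benjamini-Hochberg adjustment (0% of all genes, as this comparison called none of the 15569 tested). Unadjusted, 1 of 12 had a p under 0.05 (6.65% of all genes), and in 0 of 12 the groups did not overlap (3.35% of all genes). That 1 gene was mt-Tc, and DESeq2 and limma-voom found 0 at either threshold. mt-Tc had 1, 15, 10 and 16 counts in the GF libraries and 11, 6, 1 and 2 in GFR1 to GFR4. It passed the filter on low counts through GF, the group where it was high, and only in the comparisons that include GF, so its p is not given as a result.

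Of the well counted genes mt-Rnr2 and mt-Nd1 had the lowest estimates, at log2 -0.55 (SE 0.26) and -0.42 (SE 0.22), followed by mt-Nd2 at -0.38 (SE 0.22) and mt-Rnr1 at -0.34 (SE 0.17). mt-Nd1 had 7988, 15822, 13745 and 14481 CPM in the GF libraries and 13154, 11375, 7811 and 7594 in GFR1 to GFR4, while CON had 13118, 10723, 8988 and 11014. The GF library with the lowest value was thus among the exGF ones, and GFR1 was among the GF ones. Without GF replicate 1 the estimates were -0.72 (SE 0.24) for mt-Rnr2 and -0.60 (SE 0.17) for mt-Nd1, and without GF replicate 2 they were -0.30 (SE 0.25) and -0.30 (SE 0.22). Without GF replicate 1, the lowest GF library, 10 of 13 tested members had an unadjusted p under 0.05 (9.15% of all genes), and without GFR1, the highest exGF library, 6 of 13 had one (13.7% of all genes). Both omissions widen the difference by construction, and 0 were called by edgeR in either case. Without GF replicate 3 1 of 13 had such a p, and without GF replicate 2 (0 of 12), GF replicate 4 (0 of 13), GFR2 (0 of 13), GFR3 (0 of 13) or GFR4 (0 of 12) none had. The comparisons of GF with CON and of exGF with GF share the GF libraries, so their opposite signs are not separate observations.

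**Figure D4:**
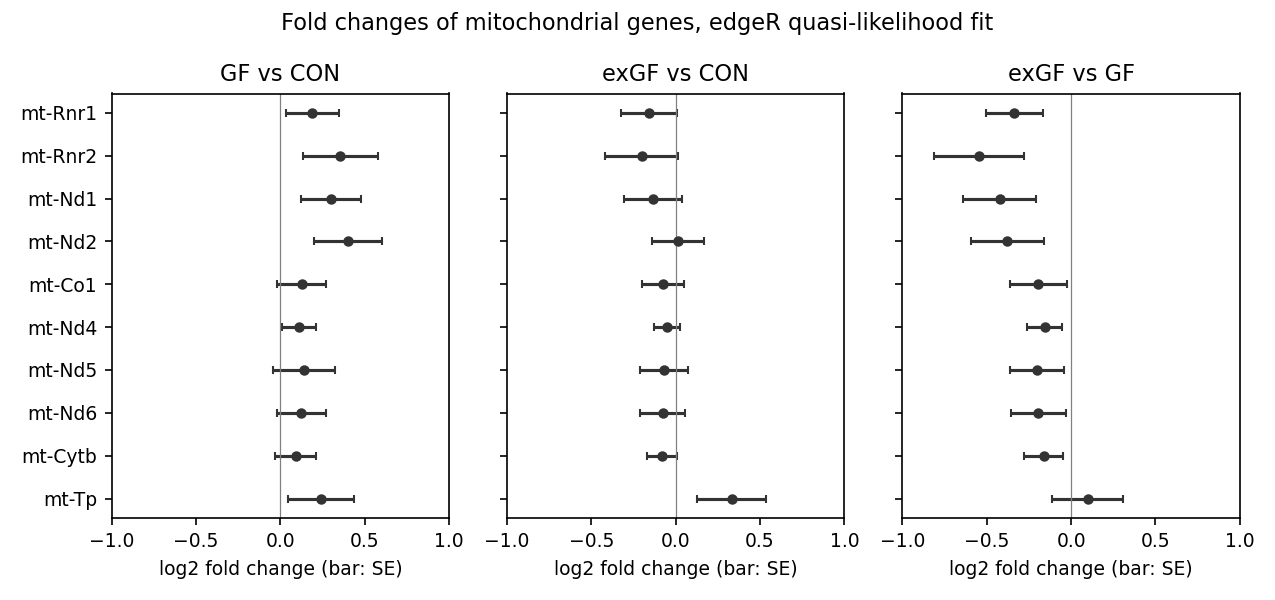
Log2 fold changes of 10 mitochondrial genes in 3 comparisons (GF vs CON, exGF vs CON, exGF vs GF), with bars for the SE of edgeR's quasi-likelihood fit. Estimates for GF vs CON all lie above 0 and those for exGF vs GF lie below 0 apart from mt-Tp at 0.10, and none was called.

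mt-Nd4 and mt-Cytb varied least among the well counted genes, followed by mt-Nd6 and mt-Co1. mt-Co1 had 24448, 19444, 19791 and 22840 CPM in the CON libraries, 15695, 26660, 23785 and 25132 in GF, and 24878, 22727, 17320 and 17186 in GFR1 to GFR4. mt-Cytb had 16918, 12768, 14867 and 14523 CPM in CON, 11695, 16644, 16528 and 15970 in GF, and 15115, 14102, 13752 and 13054 in GFR1 to GFR4. From the lowest to the highest of 12 libraries the level of mt-Nd4 changed 1.34-fold, of mt-Cytb 1.45-fold, of mt-Nd6 1.63-fold and of mt-Co1 1.70-fold, against 2.08-fold for mt-Nd1, 2.29-fold for mt-Nd2 and 3.08-fold for mt-Rnr2. mt-Rnr1 (1.86-fold) lay between. For mt-Nd1 the coefficient of variation within a group was 15.5% to 27.4%, where counting alone would give 0.190% to 0.215%, so depth did not set the precision of the well counted genes.

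Libraries with a larger mitochondrial share also had more pairs aligned to several places, a total that stands at the end of the table and to which a pair reported at several places may have been added more than a single time. It was 12.95% of all pairs in GFR3, 13.7% in GF replicate 1 and 19.2% in GF replicate 2. Over 12 libraries Pearson's r between the mitochondrial share and this total was 0.896 (permutation test, p = 0.00014, adjusted over 5 relations 0.00055) and Spearman's rho was 0.909 (permutation test, p = 0.00012, adjusted 0.00060). Without GF replicates 1 and 2, the libraries farthest from the median share, r was 0.839, and after subtracting each group's mean it was 0.877. The CON libraries followed the relation least: CON replicate 1 and CON replicate 2 had 17.3% and 17.2% of pairs aligned to several places at mitochondrial shares of 8.47% and 6.76%. A group of 4 libraries is too small for a correlation of its own. Pairs from mitochondrial genes with nuclear copies can enter the total of multiply aligned pairs, so the total and the share may not be independent. The table does not record which genes the multiply aligned pairs came from, and their part in the differences between libraries was not tested.

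The mitochondrial share went with the level of Gm28438 as well, with r = 0.860 (permutation test, p = 0.00022, adjusted 0.00055) and rho = 0.832 (permutation test, p = 0.00128, adjusted 0.00237), 0.806 without the same 2 libraries and 0.846 after subtracting group means. Pairs counted on Gm28438 may come from chromosome M, so its level and the share may not be independent. With the share of pairs that overlap several genes the mitochondrial share ran the opposite way (r = -0.815, adjusted p = 0.00307, and rho = -0.839, adjusted p = 0.00237, both by permutation test). HTSeq's no-feature class holds pairs outside genes and pairs partly in different genes with no gene along all of them. With the share of pairs in that class r was -0.502 (adjusted p = 0.111 by permutation test) and rho -0.741 (adjusted p = 0.0102 by permutation test). With the counts on genes r was -0.08 (adjusted p = 0.802 by permutation test) and rho -0.18 (adjusted p = 0.575 by permutation test), but r became -0.710 when GF replicates 1 and 2 were left out. No sequencing batch or date is given in the labels, so values within batches could not be computed.

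**Figure D5:**
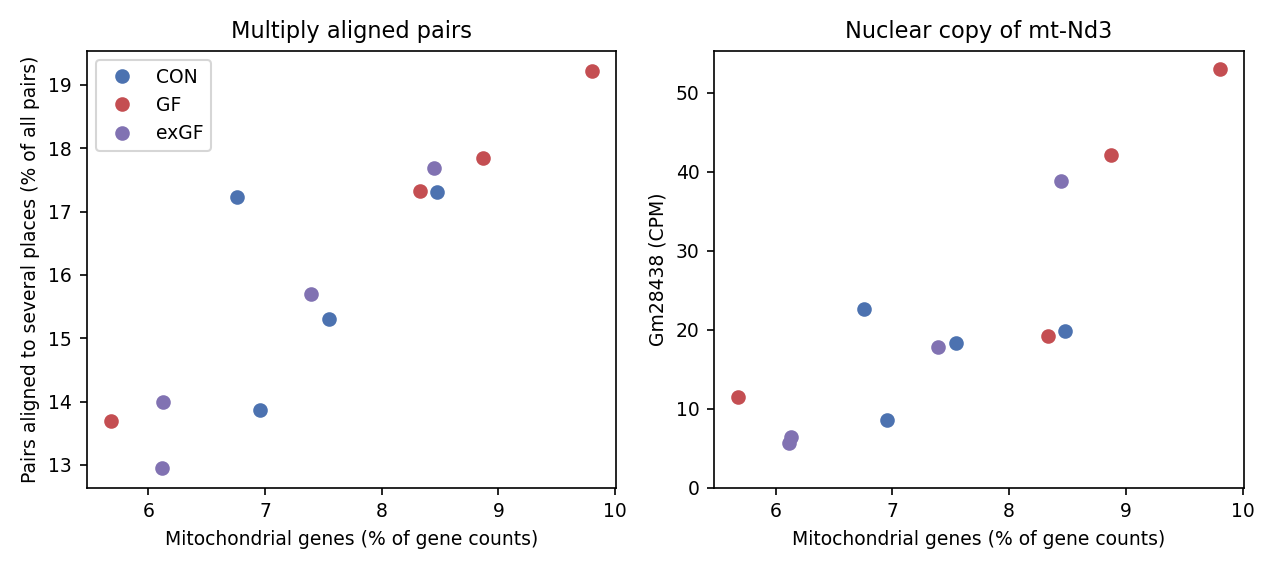
Each point is 1 of 12 libraries, coloured by group, with the mitochondrial share of gene counts on the horizontal axis. The left panel plots pairs aligned to several places (percent of all pairs, axis not starting at 0) and the right panel the level of Gm28438 (CPM). Points rise from GFR3 and GF replicate 1 at the lower left to GF replicate 2 at the upper right.

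Nuclear genes that transcribe, process and maintain mitochondrial RNA and DNA showed no called change. The list held 41 names, of which 39 were in the table and all 39 were tested, and edgeR's quasi-likelihood fit called 0 of them in each of the 3 comparisons after Benjamini-Hochberg adjustment. In GF relative to CON 4 of 39 had an unadjusted p under 0.05 (8.69% of all genes), all higher in GF, with a list median of log2 0.05 (all genes 0.0069). In exGF relative to CON 1 of 39 had one (5.33% of all genes), with a median of 0.01, and in exGF relative to GF 1 of 39 (6.65% of all genes), with a median of -0.04. These counts were near or below what the background gives. The 3 with the smallest p in GF were Tfb2m, a factor that opens mitochondrial promoters (log2 0.30, SE 0.11), Grsf1, an RNA-binding protein of mitochondrial RNA granules (0.23, SE 0.08), and Ppargc1a, a coactivator of mitochondrial biogenesis (0.29, SE 0.11). Their adjusted p-values were 0.418, 0.422 and 0.445 in edgeR's quasi-likelihood fit (Benjamini-Hochberg). Tfb2m had 12.68, 15.34, 14.00 and 12.98 CPM in the CON libraries, 15.51, 17.56, 17.12 and 15.33 in GF, and 15.99, 15.02, 15.36 and 14.43 in GFR1 to GFR4, with CON replicate 2 inside the GF range.

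Nuclear-encoded subunits of the respiratory complexes and of the ATP synthase are made in the cytoplasm and imported. They were listed as 85 genes, complex II (Sdha to Sdhd) included, of which 83 were tested. By the same edgeR test with Benjamini-Hochberg adjustment 0 were called in any comparison. In GF relative to CON 4 of 83 had an unadjusted p under 0.05 (8.69% of all genes), 3 of them higher in GF, with a list median of log2 0.05. In exGF relative to CON 2 of 83 did (5.33% of all genes), both lower in exGF, with a median of -0.14 (all genes -0.0065). In exGF relative to GF 20 of 83 did, all 20 lower in exGF (6.65% of all genes had such a p), with a median of -0.18. Of the 83, 61 had an estimate above 0 in GF relative to CON (8031 of all 15542 genes). Below 0 were 72 in exGF relative to CON (8244 of 15813) and 77 in exGF relative to GF (7990 of 15569). The 83 genes share libraries and are not independent of each other, and the part of single libraries in these counts was not tested. Ndufc2, an accessory subunit of complex I, had log2 0.34 (SE 0.13) in GF relative to CON and -0.41 (SE 0.13) in exGF relative to GF. Uqcrb, a subunit of complex III, had 0.27 (SE 0.12) and -0.43 (SE 0.15), and Ndufs5, another subunit of complex I, had -0.35 (SE 0.14) and -0.24 (SE 0.25). In exGF relative to CON Ndufc2 had -0.08 (SE 0.14), Uqcrb -0.17 (SE 0.17) and Ndufs5 -0.60 (SE 0.22). Ndufs5 fell to 21.1 CPM in GFR2, against 51.9 to 63.8 CPM over the CON libraries. The sums of the list's levels overlapped between groups, at 9295 to 13518 CPM in CON, 11118 to 12730 in GF and 8952 to 12144 in exGF.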

How the data were processed

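RNA was extracted from hand-dissected PFC, enriched for polyA and made into stranded paired-end libraries. Per the labels and methods, the authors trimmed reads with Trimmomatic 0.32 and aligned pairs to GRCm38.p3 with STAR. The STAR version is 2.3.1u in the submitters' processing notes, and the supplementary methods name a different one. Pairs were counted with HTSeq 0.6.0 on Ensembl genes without strand, in the intersection-nonempty mode, and raw counts per gene were deposited without normalization. A pair aligned to several places was given to no gene. The authors' own tests used DESeq2 1.6.2.

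The members and lists were chosen with earlier results of these data known. Symbols, coordinates and transcript sequences came from GENCODE M21 (GRCm38), which named 40254 of the 41388 genes. Each pair of groups was filtered by edgeR's filterByExpr, normalized by TMM over all genes and tested with edgeR 4.0.16 (quasi-likelihood, R 4.3.3, Benjamini-Hochberg over all tested genes, called at an adjusted p under 0.1). CPM were scaled by counts on all genes, without TMM. A sequence was called shared where its 31, 60 or 100-base windows occurred in a nuclear transcript, and a nuclear gene was called a copy where at least 80% of its 31-base words lie on chromosome M. Relations over libraries used 100000 permutations, two-sided. Intervals and limits at 0 counts cover counting error only, since reads carried no molecular identifiers. Of the fits, only edgeR's quasi-likelihood fit of GF and CON was tested on simulated counts.

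Named were all mRNA and rRNA genes, the 6 tRNA genes with the highest mean CPM, called list members or, in each nuclear list, the 3 with the smallest p in GF relative to CON, and nuclear copies with at least 1 CPM. The other copies, mt-Tt and mt-Tn were named for their place and sequence after values were seen. Alternatives were RLE, upper-quartile, nuclear-gene and library-size scaling, no filter, at least 10 counts in every library, DESeq2 1.42.0, limma-voom (limma 3.58.1), 1 fit of all 12 libraries, a threshold of 0.05, the replicate block, other denominators, and each library left out. The strand of reads was not analysed here.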

Additional observations from a re-analysis of the deposited data

Results flagged for a closer look

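Among 48 checks of a group of 4 libraries, 3 held a library that stood farther from its nearest neighbour than the 95% critical value of Dixon's test allows, where chance flags about 1 in 20. mt-Nd4 was highest in CON replicate 1, at 6427 CPM, with the next library at 5593 and the lowest at 5530. mt-Nd6 was lowest in GF replicate 1, at 1307 CPM, with the next at 1992 and the highest at 2116. mt-Cytb was lowest in the same library, at 11695 CPM, with the next at 15970 and the highest at 16644. GF replicate 1 also had the fewest counts on genes (13280926).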

How the results depend on the processing

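The number of mitochondrial genes called was 0 in each of the 3 comparisons and under each alternative run, and for the genes tested above the adjusted p-values of edgeR, DESeq2 and limma-voom were at least 0.164. In GF relative to CON, 10 of 11 estimates stayed positive in every alternative. The exception, mt-Nd5, ran from -0.0232 to 0.280 (log2) with each library left out, and was negative without CON replicate 2 (-0.0100) and without GF replicate 2. In exGF relative to CON, estimates crossed 0 with a library left out for mt-Nd1 (-0.302 to 0.00305), mt-Nd2 (-0.116 to 0.148), mt-Co1 (-0.188 to 0.0259), mt-Co2 (-0.389 to 0.347), mt-Nd4 (-0.0938 to 0.0210), mt-Nd5 (-0.216 to 0.0181), mt-Nd6 (-0.224 to 0.0138) and mt-Cytb (-0.147 to 0.0101), and limma-voom gave -0.00113 for mt-Nd2. In exGF relative to GF, mt-Tp ran from -0.152 to 0.237. The cause was not tested. The mitochondrial share of GF minus CON ran from 0.191 to 1.57 points with a library left out and was 0.476 with unassigned pairs in the denominator. Without a filter on low counts, 3 of 19 members in GF relative to CON (7.74% of all genes), 2 of 20 in exGF relative to CON (5.504%) and 6 of 21 in exGF relative to GF (6.60%) had an unadjusted p under 0.05. The numbers in the names of CON and GF libraries did not pair them: deviations of same-numbered libraries correlated at -0.09 to 0.05, no CON library correlated best with its own number, and with the replicate block 0 genes were called. The exGF columns gave no numbers that could be matched to samples, so no block was fitted there. For the 6 mRNA genes at a few counts, no difference between groups was detectable with so few counts. Of their 100-base windows, 97.6% to 99.9% also occur in nuclear transcripts, mt-Atp8 (0%) apart. Pairs aligned to several places were given to no gene, and whether depth set the limit was not tested.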
